A study of Sus scrofa with 4 samples.

Results

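Hedgehog signalling in porcine granulosa cells was examined through 9 genes chosen by name for their roles in the pathway: the ligands IHH and DHH, the receptor PTCH1, the signal transducer SMO, the transcription factors GLI1, GLI2 and GLI3, and the restraining proteins HHIP and SUFU. All 9 were found by symbol among the 29884 rows of the count table. These genes and the further lists below were chosen with earlier results of these data known. Their shares, set beside those of all genes, are therefore descriptions only. Granulosa cells, which form the inner wall of the follicle around the oocyte, were taken from antral follicles of pigs, and part of each preparation went to flow cytometry for the cell cycle. The rest was sorted into groups by how many cells were in G0/G1, the resting and pre-replicative part of the cycle, and sequenced. The high G0/G1 group and the low G0/G1 group had 2 libraries each, and no treatment, genotype or animal age is named for either. Nothing in the labels says whether 2 libraries of one group had different animals as their source, so every p-value measures only how these libraries spread, which may be technical.

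Hedgehog ligands are secreted proteins that bind Patched receptors. A free Patched holds SMO inactive, and ligand binding releases SMO, which then moves into the primary cilium and lets GLI factors reach the nucleus as activators. GLI1, PTCH1 and HHIP are themselves classical targets of the pathway, so their transcripts are often used as its readout. In the ovary, granulosa cells are known as the source of IHH and DHH. The theca and stroma outside the granulosa layer are known as the cells that answer with GLI1 transcription. The primary cilium is taken down when cells enter mitosis and rebuilt afterwards.

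Library totals ran from 27442850 to 32674921 counts. Levels are given in CPM, counts relative to the library total after scaling for composition, in the order high replicate 1, high replicate 2, low replicate 1 and low replicate 2. They are compared between libraries and not between genes, because transcript lengths were not used here. The granulosa markers INHA (10600, 8000, 7750 and 6700 CPM), encoding the inhibin alpha subunit, and FOXL2, a granulosa transcription factor (72.8, 29.9, 94.3 and 109 CPM), were present in every library. Of the 15 granulosa markers only CYP19A1 had no count in any library, while its paralog CYP19A3 had 1140 to 3990 CPM. Some granulosa markers did not overlap between the groups, in both directions, as was so for 56.6% of all genes tested. Named after their values were seen, FSHR had 22.5, 26, 81.6 and 85.9 CPM, and AMHR2 had 89.9, 56.6, 30.7 and 26.2. Their adjusted p values were 0.125 and 0.162 by edgeR, and 2.46e-07 and 0.00634 by DESeq2.

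Low replicate 2 stood apart in most, but not all, stroma and smooth muscle transcripts. The 12 stroma and smooth muscle markers summed to 154 and 194 CPM in the high libraries, 83.2 in the first low library and 1650 in low replicate 2, and 9 of the 12 were highest there. The rest, PDGFRA (1.98, 18.6, 0.878 and 6.17 CPM), MYH11 and NR2F2, were highest in high replicate 2. COL1A1, a collagen of fibroblasts, had 34.3, 27.7, 16.3 and 390 CPM. CYP17A1, the theca enzyme of androgen synthesis, had 0.772, 1.02, 0.125 and 51.5 CPM. The whole list of 9 theca markers summed to 1270 and 605 CPM in high and 626 and 822 in low libraries, with 5 of 9 highest in low replicate 2 and none at 0 in all libraries. Its largest single value was LHCGR, the receptor of luteinising hormone, at 1000 CPM in high replicate 1. This gene had 277 CPM in high replicate 2 and 148 and 95.5 in the low libraries. Granulosa cells of large follicles express it as well. The 8 endothelial markers summed to 55.8 and 60.3 against 63.8 and 78.8 CPM, with 5 of 8 highest in low replicate 2. TIE1 alone held 38.7, 12.1, 56.5 and 22.3 CPM of these sums. KDR, at 1.98, 29.5, 2.92 and 10.5 CPM, and EMCN were highest in high replicate 2. The 9 leukocyte markers summed to at most 3.93 CPM. Among 8 oocyte markers ZP2 and FIGLA were at 0 in every library, with sums of 6.43 to 11.8 CPM that came mostly from GDF9. The erythroid markers had 27.5 and 19.9 against 9.25 and 15.7 CPM.

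High was compared with low G0/G1 to ask which hedgehog genes differ with the G0/G1 share. Of the 9 genes 7 passed the filter on low counts; GLI1 and GLI2 did not. At an adjusted p under 0.05 edgeR's quasi-likelihood test called 0 of the 7, as it called 0% of all 14352 genes tested in either direction. At an unadjusted p under 0.05 IHH was lower and PTCH1 higher, where 10.8% of all genes were lower and 9.92% higher at that limit. DESeq2 called the same 2 genes in those directions at an adjusted p under 0.05, against 5.14% of its genes lower and 5.45% higher. limma-voom called 0 of the 7 after adjustment, and at an unadjusted p under 0.05 it had 1 higher and 2 lower. Among the 7 genes tested, the CPM of the high libraries lay wholly below that of the low ones in IHH, DHH and SMO. It lay wholly above that of the low ones in PTCH1. Such separation was seen in 29.8% and 26.8% of all genes tested. An exact permutation test over 4 libraries cannot give a p below 0.333, so none was run for single genes.

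**Figure D1:**
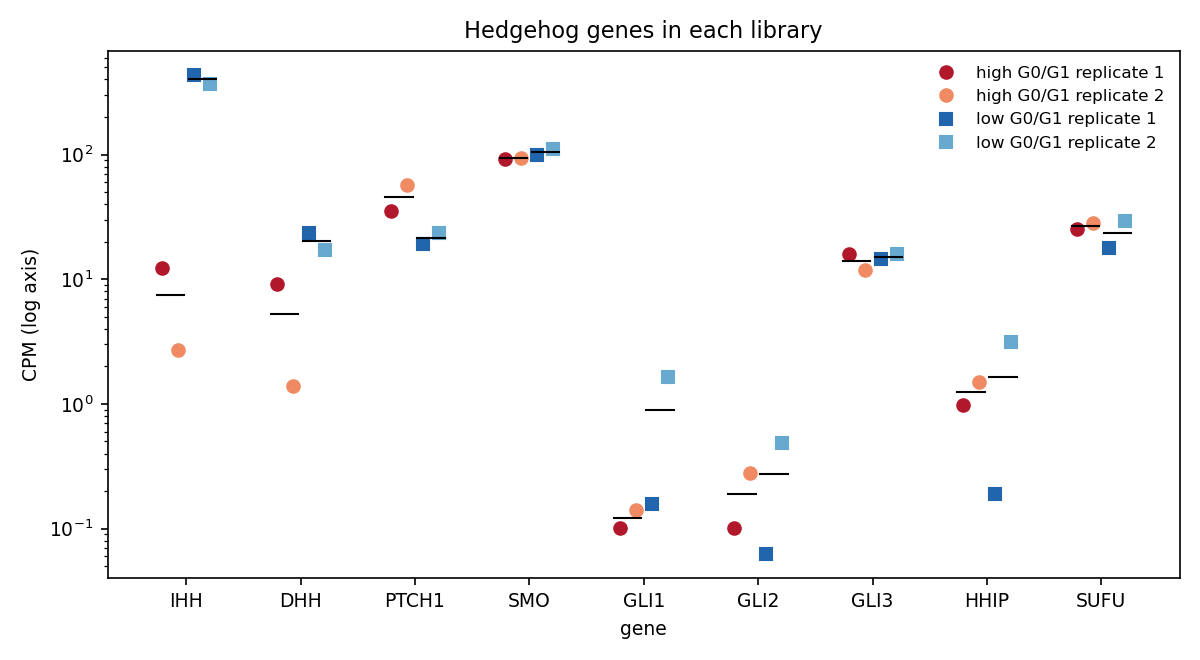
CPM of each of the 9 hedgehog genes on a log axis, with 1 point per library (circles for high and squares for low G0/G1) and a bar at each group mean. IHH spans 2.7 to 437 CPM, SMO stays between 91.7 and 110, and GLI1 stands out in low replicate 2 alone.

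IHH, Indian hedgehog (chromosome 15, 121083750 to 121090548 in Sscrofa11.1), had 368, 77, 13937 and 10653 counts, or 12.3, 2.7, 437 and 369 CPM. Both low libraries were at least 29.9 times above either high library, and the groups did not overlap. The group means were 7.52 ± 6.82 CPM (SD, n = 2) for high and 403 ± 47.9 for low G0/G1, a ratio of 53.6. The log2 fold change, high minus low, was -5.74 ± 0.81 (SE), with a 95% interval of -7.81 to -3.68 and an adjusted p of 0.125 by edgeR. It was the sixth most negative of the 14352 genes tested. DESeq2 gave -5.73 ± 0.65 with an adjusted p of 1.72e-15. In bulk libraries fewer cells that make a transcript and less of it per cell cannot be told apart.

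The high libraries were themselves unlike in IHH, with high replicate 1 at 4.57 times high replicate 2, while low replicate 1 was 1.18 times low replicate 2. The counting intervals of the high libraries were 331.4 to 407.6 counts and 60.8 to 96.2 counts at similar depth, so the gap between them exceeded counting error. Without high replicate 1 the log2 fold change was -7.22 ± 0.38 and passed the threshold (edgeR adjusted p = 0.0192). Without high replicate 2 it was -5.03 ± 0.34 (adjusted p = 0.132). Without low replicate 2, where the summed stroma and smooth muscle markers were highest, it was -5.85 ± 0.86, so the difference was as large without that library. DESeq2 called IHH lower with any 1 library left out.

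DHH, desert hedgehog (chromosome 5, 15114524 to 15119610), had 274, 40, 747 and 492 counts, or 9.19, 1.4, 23.4 and 17.1 CPM. The groups did not overlap, yet high replicate 1 was nearer to low replicate 2 than to the other high library on the log scale: the nearest libraries of the 2 groups differed 1.86 times and the high libraries 6.55 times. The means were 5.3 ± 5.51 CPM (SD, n = 2) for high and 20.2 ± 4.5 for low G0/G1. The log2 fold change was -1.93 ± 0.86 (edgeR adjusted p = 0.275), with a 95% interval of -4.11 to 0.24, and DESeq2 gave an adjusted p of 0.1. It was -3.85 ± 0.44 without high replicate 1, where edgeR called it (adjusted p = 0.029), and -1.14 ± 0.34 without high replicate 2 (adjusted p = 0.234).

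SHH, sonic hedgehog, the ligand best known from limb and neural patterning, had 0 counts in all 4 libraries, which allows at most 3 counts, or 0.0941 to 0.105 CPM, in each. Of the counts assigned to IHH and DHH together, IHH took 57.3% (Wilson 95% interval 53.5 to 61.1) in high replicate 1 and 65.8% (56.8 to 73.8) in high replicate 2. In the low libraries it took 94.9% (94.5 to 95.3) and 95.6% (95.2 to 96). These shares rest on 642, 117, 14684 and 11145 ligand counts, and they need no scaling between libraries. The makeup of the ligand counts thus differed between the groups beyond counting error, with a larger IHH share in both low libraries. These intervals hold counting error alone: the labels name no molecular identifiers, without which reads are not independent molecules.

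PTCH1, the Patched receptor that binds all hedgehog ligands (chromosome 10, 26627165 to 26703225), had 35.1, 56.9, 19.3 and 23.6 CPM. Both high libraries were above both low ones, by 1.49 times at the nearest. The means were 46 ± 15.4 CPM (SD, n = 2) for high and 21.5 ± 3.04 for low G0/G1, and the log2 fold change was 1.1 ± 0.31 (edgeR adjusted p = 0.182), with a 95% interval of 0.3 to 1.9. DESeq2 called it, at an adjusted p of 0.0423. Without high replicate 1 the log2 fold change was 1.41 ± 0.23 (edgeR adjusted p = 0.0481), and without high replicate 2 it was 0.71 ± 0.25 (adjusted p = 0.269). DESeq2 lost its call without high replicate 2 (adjusted p = 0.379), without low replicate 1 (adjusted p = 0.525) and without low replicate 2 (adjusted p = 0.351). A long non-coding gene inside the PTCH1 locus had 7 to 11 counts, against 616 to 1620 for PTCH1.

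The direction of PTCH1 was opposite to that of both ligands. Taken within each library, the log2 ratio of IHH to PTCH1 counts was -1.51 and -4.39 in high and 4.5 and 3.97 in low libraries. For DHH to PTCH1 it was -1.93 and -5.34 in high and 0.28 and -0.47 in low. Such ratios do not depend on library scaling, and since gene length was not taken into account only their differences between libraries can be read.

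SMO, the membrane protein that Patched restrains (chromosome 18, 19450730 to 19478796), varied least among the 9 genes, at 91.7, 94.2, 99.3 and 110 CPM. The means were 93 ± 1.75 CPM (SD, n = 2) for high and 105 ± 7.56 for low G0/G1. The log2 fold change was -0.17 ± 0.19 (edgeR adjusted p = 0.647), and its 95% interval of -0.66 to 0.32 leaves room for a moderate difference in either direction. The highest library was 1.2 times the lowest, where PTCH1 spanned 2.94 times and IHH 162 times.

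HHIP, the hedgehog-interacting protein, a membrane decoy that sequesters ligand (chromosome 8, 83583735 to 83678368), had 29, 43, 6 and 90 counts, or 0.973, 1.51, 0.188 and 3.12 CPM. The low libraries were both the lowest and the highest, at a ratio of 16.6, and the high libraries lay between them. The log2 fold change was -0.41 ± 1.22 (edgeR adjusted p = 0.875), and the 95% interval ran from -3.5 to 2.68. Without low replicate 2 it turned to 2.72 ± 1.09 (adjusted p = 0.45), and without low replicate 1 it was -1.26 ± 0.79 (adjusted p = 0.581). A neighbouring protein-coding gene overlaps the end of HHIP and had 20, 52, 6 and 34 counts, and reads in the overlap cannot be assigned with certainty.

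**Figure D2:**
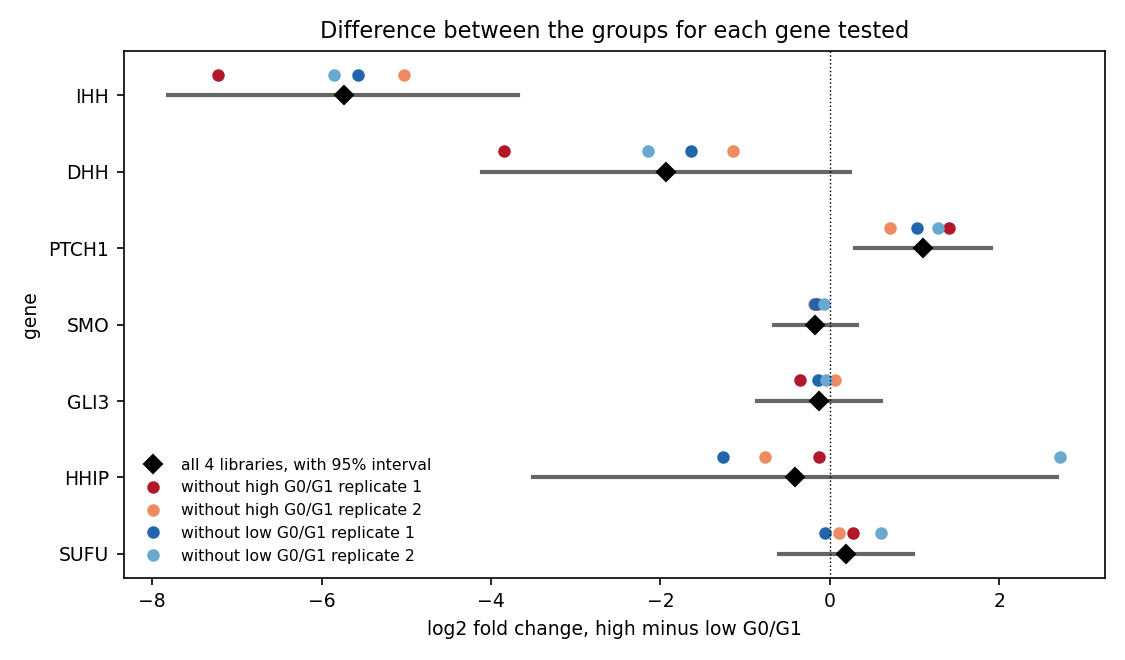
Log2 fold change, high minus low G0/G1, of the 7 tested hedgehog genes, as diamonds with 95% intervals from edgeR, and as circles the value when 1 library is left out. The intervals of IHH and PTCH1 lie away from 0, and HHIP moves from -1.26 to 2.72 depending on the library left out.

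Of the GLI factors only GLI3 passed the filter on low counts used with edgeR. GLI3, which acts mainly as the repressor that keeps hedgehog targets silent without ligand (chromosome 18, 52403463 to 52697906), had 15.8, 11.9, 14.4 and 15.9 CPM. The groups overlapped, and the libraries differed by at most 1.33 times. The log2 fold change was -0.13 ± 0.29 (edgeR adjusted p = 0.828; 95% interval -0.86 to 0.6), and it was 0.06 without high replicate 2.

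SUFU, which holds GLI proteins in the cytoplasm (chromosome 14, 113500001 to 113628064), had 25.5, 28.4, 17.9 and 29.3 CPM. Low replicate 1 was the lowest and low replicate 2 the highest, with both high libraries between them. The log2 fold change was 0.19 ± 0.31 (edgeR adjusted p = 0.757; 95% interval -0.6 to 0.98), and it was -0.06 without low replicate 1. A pseudogene within SUFU had 0, 0, 4 and 0 counts.

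GLI1, the activator whose own transcription follows pathway activity (chromosome 5, 22736325 to 22747421), had 3, 4, 5 and 47 counts. These correspond to 0.101, 0.14, 0.157 and 1.63 CPM, with counting intervals of 0.0207 to 0.294, 0.0382 to 0.359, 0.0509 to 0.366 and 1.2 to 2.17. The interval of low replicate 2 lay above the others, which overlapped each other. Fitted without the filter the log2 fold change was -2.85 ± 1.27 (edgeR adjusted p = 0.335), and it rests on that 1 library. DESeq2 gave -2.85 ± 1.52 with an adjusted p of 0.236. The gene ARHGAP9 overlaps the end of GLI1 and had 18, 21, 26 and 10 counts, lowest where GLI1 was highest.

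GLI2, the main activator in many tissues (chromosome 15, 30312528 to 30580272), had 3, 8, 2 and 14 counts, or 0.101, 0.281, 0.0627 and 0.485 CPM. Low replicate 2 was again the highest, with a counting interval of 0.265 to 0.814 CPM that overlapped the 0.121 to 0.553 of high replicate 2. Without the filter the log2 fold change was -0.52 ± 1.29 (edgeR adjusted p = 0.863). For GLI2 no difference between the groups was detectable at this depth, and for GLI1 the low libraries differed from each other beyond counting error.

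GLI1, GLI2 and HHIP were each highest in low replicate 2, the library with 8.5 times the summed stroma and smooth muscle level of the next. Low replicate 1 had the lowest sum of these markers, at 83.2 CPM, and also the lowest HHIP and, within counting error, GLI2. GLI1 in low replicate 1 was within the counting error of both high libraries. The IHH level of that library, 437 CPM, was the highest of all. A link between the levels of IHH and GLI1 was not tested. The part of stromal or theca cells in the levels of GLI1, GLI2 and HHIP was not tested either. SMO, GLI3 and SUFU were also highest in low replicate 2, by much smaller margins, while IHH and DHH were highest in low replicate 1 and PTCH1 in high replicate 2.

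**Figure D3:**
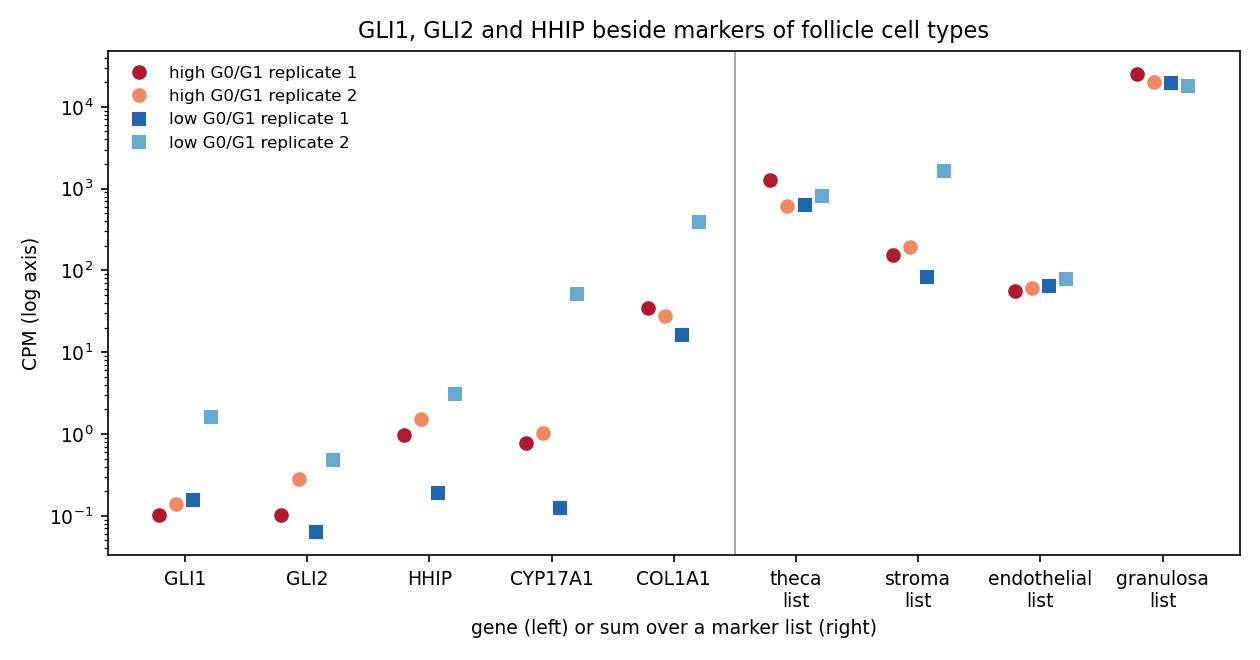
CPM on a log axis in each library of GLI1, GLI2, HHIP, CYP17A1 and COL1A1 (left), and of sums over marker lists of follicle cell types (right). Low replicate 2 is the highest point for the 5 genes and for the stroma (1650 CPM) and endothelial (78.8 CPM) lists. It is not the highest for the theca and granulosa lists.

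The 4 libraries fell in the same order in several of these genes. IHH and DHH went from low replicate 1 through low replicate 2 and high replicate 1 to high replicate 2, an order held by 12.5% of all genes tested, and HHAT, chosen after its values were seen, shared it. PTCH1 had exactly the reverse order, held by 9.25% of all genes, as did the co-receptors GAS1 and CDON. These shares are those of a common ordering, so an ordering alone does not tie these genes to each other.

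Genes that release, carry and receive the ligand differed in both directions. Of 15 genes 14 were tested; 7 were higher and 7 lower in the high libraries, and the median log2 fold change was 0.06, beside -0.01 over all genes. edgeR called 0 after adjustment, with 3 higher (21.4%) and 2 lower (14.3%) at an unadjusted p under 0.05, where all genes had 9.92% and 10.8%. DESeq2 called those 3 higher and 2 lower, where it called 5.45% and 5.14% of all its genes. When low replicate 1 was left out it called 2 higher and 1 lower, and for low replicate 2 it called 1 each way. The median turned to -0.12 when high replicate 2 was left out, and to -0.03 without low replicate 1.

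GAS1, a co-receptor that helps ligand reach Patched, had 36.1, 209, 6.9 and 11 CPM. Both high libraries were above both low ones, but high replicate 2 was 5.79 times high replicate 1. Its log2 fold change was 3.78 ± 0.89 (edgeR adjusted p = 0.169, DESeq2 adjusted p = 2.29e-05). BOC, another co-receptor, named after its values were seen, had 6.37, 16.4, 4.17 and 1.42 CPM, with a log2 fold change of 2.02 ± 0.73 (edgeR adjusted p = 0.219, DESeq2 adjusted p = 0.049). CDON, the third of these co-receptors and likewise named after its values were seen, had 174, 246, 126 and 147 CPM and a log2 fold change of 0.62 ± 0.26 (edgeR adjusted p = 0.255, DESeq2 adjusted p = 0.216). All 3 co-receptors were thus higher in both high libraries, as PTCH1 was, with an adjusted p over 0.05 by edgeR in each. Separation upward was seen in 28.6% of the tested genes of this list and 26.8% of all genes, and downward in 35.7% and 29.8%. These 3 therefore do not stand for the list as a whole.

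The secreted SCUBE proteins help release hedgehog ligands from the cells that make them. SCUBE3 had 3.32, 2.35, 74.3 and 98.6 CPM and a log2 fold change of -4.93 ± 0.33 (edgeR adjusted p = 0.125), and SCUBE1, at 431, 387, 195 and 218 CPM, went the other way at 0.99 ± 0.21 (adjusted p = 0.16). GPC6, a glypican, one of the cell-surface proteoglycans that bind hedgehog ligands, had 41.3, 49.5, 108 and 82.9 CPM and a log2 fold change of -1.07 ± 0.24 (adjusted p = 0.162). DESeq2 called SCUBE3, SCUBE1 and GPC6, at adjusted p values of 2.72e-36, 0.00509 and 0.0214. SCUBE2, named after its values were seen, overlapped between the groups at 20, 39.2, 18.7 and 29.8 CPM. Its log2 fold change was 0.29 ± 0.42 (edgeR adjusted p = 0.726). HHAT, which attaches palmitate to the ligands and is named after its values were seen, had 10.8, 10.1, 13.7 and 13.5 CPM, a small difference beside that of the ligands themselves.

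The relay from SMO to the GLI factors had smaller differences. Of 24 genes 23 were tested, 13 higher and 10 lower, with a median log2 fold change of 0.13. edgeR called 0 after adjustment and DESeq2 called 0, while at an unadjusted p under 0.05 there were 2 higher (8.7%) and 1 lower (4.35%), no more than the 9.92% and 10.8% of all genes. Without high replicate 1 DESeq2 called 1 higher and 2 lower. The 4 genes with the smallest p are given as values. STK36, a kinase related to the fly pathway gene fused, had 33.5, 46.9, 19.1 and 23 CPM (log2 fold change 0.93 ± 0.27, edgeR adjusted p = 0.185). PRKACB, a catalytic subunit of protein kinase A, which marks GLI factors for processing to repressors, had 77.2, 86.8, 57 and 56.6 CPM (0.53 ± 0.2, adjusted p = 0.224). GRK2, a kinase of activated SMO, had 88.7, 53.8, 132 and 127 CPM (-0.86 ± 0.29, adjusted p = 0.208), and ARRB2, a beta-arrestin that binds SMO after such phosphorylation, had 17.3, 11.4, 26.9 and 21.8 CPM (-0.76 ± 0.31, adjusted p = 0.252).

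Genes of the primary cilium, a list drawn up with earlier results known, leaned one way with small steps. Of 31 genes 29 were tested, and 23 of them (79.3%) were higher in the high libraries, beside 49.4% of all genes. The median log2 fold change was 0.26. The high libraries lay wholly above the low ones in 16 of 29, or 55.2%, and wholly below in 3, or 10.3%, against 26.8% and 29.8% of all genes. edgeR and DESeq2 each called 0 after adjustment, and 3 (10.3%) were higher and 0 lower at an unadjusted p under 0.05, where all genes had 9.92% and 10.8%. DESeq2 called 1 higher without high replicate 2. The median ranged from 0.1 without high replicate 1 to 0.42 when low replicate 2 was left out.

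ARL6, a small GTPase that recruits the coat carrying proteins into the cilium, had 15, 19.1, 9.38 and 9.43 CPM and a log2 fold change of 0.86 ± 0.29 (edgeR adjusted p = 0.205). KIF3B, a motor of intraflagellar transport, had 80.2, 75.8, 37.4 and 56.3 CPM (0.74 ± 0.26, adjusted p = 0.219), and TMEM67, a membrane protein of the transition zone, had 50.2, 44, 30.9 and 33.6 CPM (0.55 ± 0.21, adjusted p = 0.236). IFT27, an intraflagellar transport GTPase needed for hedgehog proteins to leave the cilium, was on the other side at 18, 13.6, 23.5 and 25.9 CPM (-0.64 ± 0.27, adjusted p = 0.255). The largest of these 4 differences was below that of PTCH1.

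Genes reported as hedgehog targets in various tissues leaned lower in the high libraries, but not when low replicate 2 was set aside. This list too was drawn up with earlier results known. Of 22 genes 19 were tested, 4 of them higher and 15 (78.9%) lower, beside 50.6% of all genes. The median log2 fold change was -0.94, and it became 0.16 without low replicate 2. edgeR called 0 after adjustment, with 1 higher (5.26%) and 2 lower (10.5%) at an unadjusted p under 0.05, no more than the 9.92% and 10.8% of all genes. DESeq2 called 1 higher and 2 lower, against 5.45% and 5.14% of all its genes. Its 1 higher call was lost with any 1 library left out, and the lower calls were 0 without low replicate 2 and 3 without high replicate 1 or low replicate 1. MYCN, a transcription factor of proliferating cells, had 1.91, 1.93, 10.4 and 8.15 CPM (log2 fold change -2.27 ± 0.4, edgeR adjusted p = 0.142, DESeq2 adjusted p = 4.58e-05). FOXM1, which drives genes of mitosis, had 25, 6.35, 60.6 and 61.2 CPM (-1.96 ± 0.64, edgeR adjusted p = 0.202). Both genes are also known from dividing cells, and since the groups were formed by a measure of the cell cycle, hedgehog activity and cell cycle share cannot be told apart here. PTHLH, parathyroid hormone-like hormone, was higher in both high libraries, at 4.63, 3.51, 1.38 and 1.39 CPM (1.55 ± 0.48, edgeR adjusted p = 0.194). CYP17A1, given above, had a log2 fold change of -4.84 ± 2.19 (adjusted p = 0.283) that rests on low replicate 2.

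**Figure D4:**
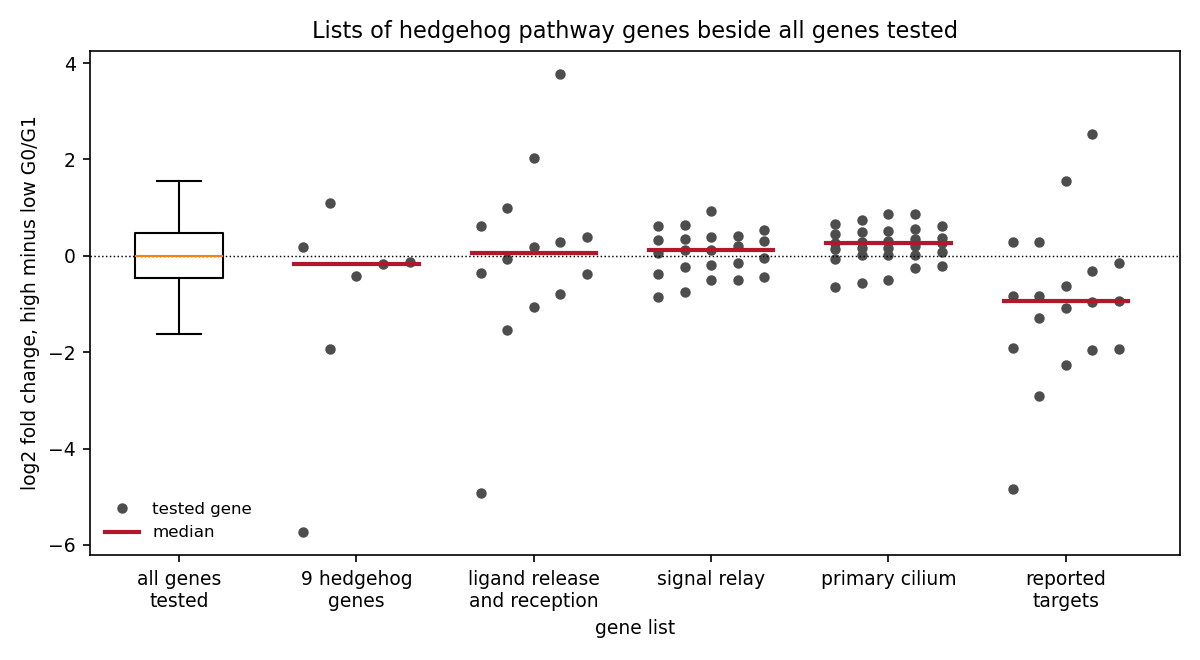
Log2 fold change, high minus low G0/G1, of each tested gene (points) in the 9 hedgehog genes and 4 further lists, with list medians as red bars. The box at the left gives the quartiles of all 14352 genes with whiskers at the 5th and 95th percentiles; the cilium genes sit close to 0 with most above it, and IHH is the lowest point.

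Genes whose levels over the 4 libraries were most like those of IHH were sought among 11817 others, by the Euclidean distance of log2 CPM centred on each gene's mean. The nearest was NES, which encodes the intermediate filament protein nestin, at a distance of 1.1, with 6.91, 2.63, 159 and 152 CPM. It was followed by RAPGEFL1 at 1.22, CNGA3, a cyclic nucleotide-gated channel subunit, at 1.69, SCUBE3 at 1.75 and GJA5, a gap junction subunit, at 2.36. In the high libraries RAPGEFL1 had 0.57 and 0.246 CPM, CNGA3 0.738 and 0.527, and GJA5 0.939 and 1.69. Their centred values there rest on few counts and depend in part on the prior count of 2. No gene lay within 0.5 of IHH. This distance grows with the size of a gene's differences. Centred log2 CPM ran from -4.13 to 3.17 for IHH and from -0.68 to 0.88 for PTCH1. For PTCH1 the nearest genes were ROBO2, a receptor of Slit guidance proteins, at 0.06, RIMS1 and FBXL20 at 0.08, and METTL7A and MBD5 at 0.09. ROBO2 had 145, 243, 78.2 and 95.8 CPM. Within 0.5 of PTCH1 lay 410 genes, 3.47% of the candidates. Because of that difference in size, the same radius cannot tell which pattern had the more common shape. With 4 libraries such likeness is a description of these samples.

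**Figure D5:**
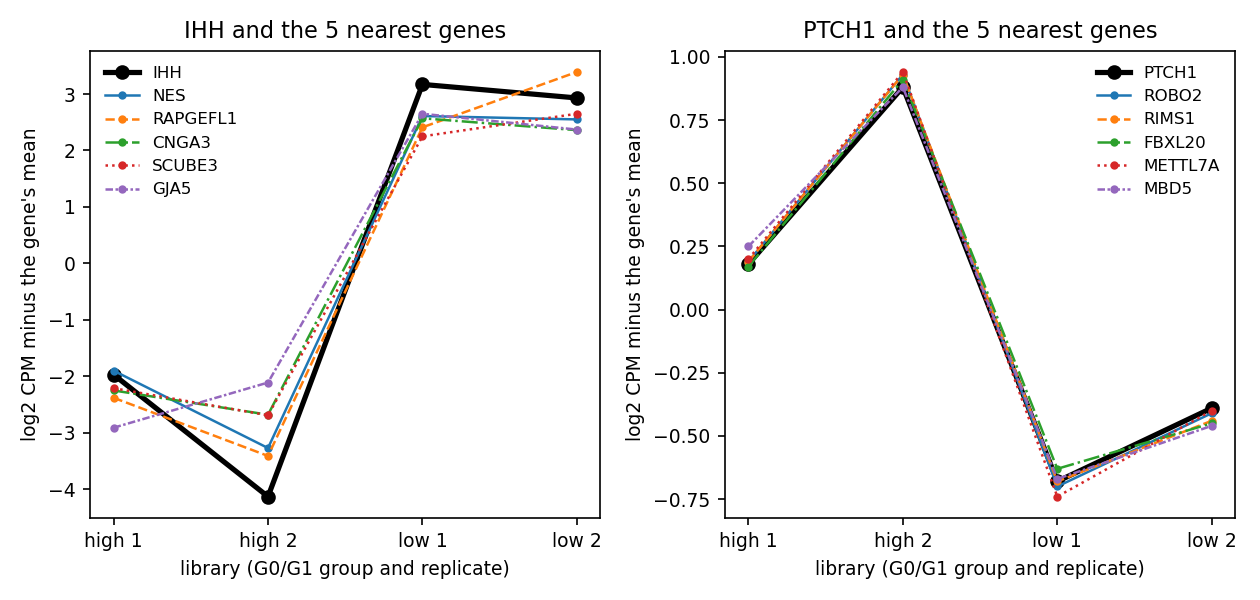
Log2 CPM of IHH (left) and PTCH1 (right), each minus the gene's own mean, in the 4 libraries, with the 5 genes nearest to each; lines only join the points of a gene. IHH runs from -4.13 to 3.17 and its nearest genes span less, while the 5 genes nearest to PTCH1 overlie it.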

How the data were processed

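RNA of 4 granulosa cell libraries was sequenced after Trizol extraction, per the labels' protocols. The authors deposited 1 table that holds read counts as whole numbers for each gene symbol. Per the submitters' processing notes, HISAT2 was used with the assembly Sscrofa11.1. Which counter, annotation release and strand setting produced the table is not given in the sources used here. Reads of overlapping genes may therefore be split in unknown ways. Coordinates are those of RefSeq on Sscrofa11.1, in which 29862 of 29884 symbols and all 9 hedgehog genes were found. Each column was matched to a sample by its title, with 0 columns left over, and replicate numbers follow listing order.

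edgeR 4.0.16 in R 4.3.3 was run on all 4 libraries (filterByExpr at min.count 10 and min.total.count 15, TMM, glmQLFit, glmQLFTest, no covariate, Benjamini-Hochberg over 14352 genes). The residual and prior degrees of freedom were 2 and 3.2. The SE was taken from the log2 fold change and the F statistic, and 95% intervals use the total degrees of freedom. Levels in CPM use TMM-scaled totals, and log2 CPM a prior count of 2. A count of 0 was read as at most 3 counts, and counting intervals are exact Poisson. Alternatives were DESeq2 1.42.0, limma-voom (limma 3.58.1), other scalings and filters, and leaving out each library. DESeq2 with a library left out was added after the data were seen. The fits were tested on simulated data. The hedgehog genes and lists were chosen with earlier results of these data known. The named genes are the 9, SHH, up to 4 per further list with the smallest p (average log2 CPM at least 1), and the 5 genes nearest to IHH and to PTCH1. Cell type markers and genes that overlap a member were named outside this rule, and not all are marked. Other genes named outside it are marked. A further gene of the rule is not reported here.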

Additional observations from a re-analysis of the deposited data

How the results depend on the processing

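No paired analysis was run because the labels do not name the animal or ovary of each library. Sample titles end in letter codes, and a letter recurs in a library of each group, but the labels do not say what it marks. All genes called numbered 754 higher and 711 lower with DESeq2, 2 and 3 with no filter on low counts, and between 0 and 339 higher and 0 and 557 lower by edgeR with 1 library left out, the highest without high replicate 1. With DESeq2 the counts were 954 and 1270 when high replicate 1 was left out, 380 and 469 for the other high library, 296 and 116 for low replicate 1, and 198 and 146 for the other low library. Hedgehog genes called numbered 1 higher and 1 lower with DESeq2. With 1 library left out they were 0 to 1 higher and 0 to 2 lower by edgeR, and 0 to 1 higher and 1 to 2 lower by DESeq2. All of these edgeR calls came without high replicate 1, a fit in which the lone high library is assumed to vary like the low ones.

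Directions turned for HHIP, whose log2 fold change was 0.67 with limma-voom and, with 1 library left out, ran from -1.26 to 2.72 by edgeR and was 2.7 by DESeq2 without low replicate 2. GLI3 ran from -0.35 to 0.06, and was 0.08 by DESeq2 without high replicate 2. SUFU ran from -0.06 to 0.61, and was -0.08 by DESeq2 without low replicate 1. The median of the ligand release and reception list ran from -0.12 to 0.2, with -0.03 without low replicate 1, and DESeq2 gave -0.1, -0.06 and -0.01 when high replicate 2 or either low library was left out. That of reported targets ran from -1.1 to 0.16, and DESeq2 gave 0.1 without low replicate 2. The cause of these turns was not tested. IHH, DHH, PTCH1 and SMO kept their direction under every alternative run. Depth limits what can be said of GLI2, and the spread between the low libraries what can be said of GLI1.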
